A study of Mus musculus with 16 samples.

Results

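The polypeptide GalNAc transferases listed here are Galnt1, Galnt2, Galnt3, Galnt4, Galnt5, Galnt6, Galnt7, Galnt10, Galnt12 and Galnt14, 10 genes covered by 23 of the 45101 probe sets on Affymetrix Mouse430_2 arrays. Galnt5 was chosen by its low intensity in the Wnt4 knock-out testis at embryonic day 14.5 (E14.5), and the others were taken as its family. Gonads were dissected from embryos of both sexes at E14.5 and E12.5, from mice with a knock-out (KO) of Wnt4, a gene for a secreted signalling protein with a known part in ovary development, and from wild-type (WT) mice. The 16 arrays form 8 groups of 2: KO testis, WT testis, KO ovary and WT ovary, each at both stages. The tissue was whole embryonic gonad, no treatment is named, and the strain, the kind of Wnt4 allele and whether an array held 1 embryo or a pool are not stated in the labels. Arrays of a group are labelled as biological replicates without naming separate animals, so a p-value here rests on the spread of these arrays alone, which may be technical.

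Mucin-type O-glycosylation begins when a GalNAc transferase moves N-acetylgalactosamine from UDP-GalNAc to a serine or threonine of a protein in the Golgi. The family is large because its members prefer different peptides: some act on bare protein, and others add further sugars beside sites that are already glycosylated. Other enzymes then extend the sugar into core structures and cap them with sialic acid, and mucins and mucin-like cell surface proteins carry many such chains.

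Several facts of the arrays bear on the members' values. Values are the deposited intensities on a linear scale, with array medians between 9.32 and 10.5, so an intensity below about 10 lies in the lower part of an array. Wnt4 read 277 and 371 in KO testis E14.5, against 753 and 512 in WT testis E14.5, and 351 and 302 in KO ovary E14.5, against 1138 and 1151 in WT ovary E14.5. At E12.5 Wnt4 read 413 and 231 in KO testis, against 502 and 473 in WT testis, and 839 and 520.2 in KO ovary, against 844 and 1822 in WT ovary. In each pair both KO arrays lie below both WT arrays, by the narrowest margin in ovary E12.5. The male samples have an ovary in their titles and a testis in their source, and sex-linked transcripts followed the source. By those transcripts, 3 of the E14.5 arrays held more than 10% RNA of the other sex: KO testis replicate 2 (16.4%), WT testis replicate 2 (22.7%) and WT ovary replicate 2 (19.9%). At E12.5 the share was 17.8% in KO ovary replicate 2, 17.98% in WT ovary replicate 1 and 6.74% in WT ovary replicate 2. Where arrays rich in RNA of the other sex are left out together below, only those 3 of E14.5 are meant. The ratio of 3' to 5' control probe sets, a measure of RNA integrity, was 1.76 to 2.27 in KO testis replicate 1, KO ovary replicate 1 and WT ovary replicate 2 of E12.5, against 1.06 to 1.36 in the other 13 arrays. The WT testis E12.5 arrays were close to each other, with a standard deviation of 0.142 for their log2 differences over probe sets, against 0.335 to 0.592 in the other groups.

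The promoters of Galnt5 and Galnt10 are shown because these genes, described below, showed different patterns over the groups. Both are the RefSeq sequences of GRCm38.p6 from 250 bases before to 50 bases after the gene start, on the plus strand, with CpG dinucleotides in capitals. The Galnt5 window is chr2:57997905-57998204 and the Galnt10 window is chr11:57645192-57645491.
Galnt5: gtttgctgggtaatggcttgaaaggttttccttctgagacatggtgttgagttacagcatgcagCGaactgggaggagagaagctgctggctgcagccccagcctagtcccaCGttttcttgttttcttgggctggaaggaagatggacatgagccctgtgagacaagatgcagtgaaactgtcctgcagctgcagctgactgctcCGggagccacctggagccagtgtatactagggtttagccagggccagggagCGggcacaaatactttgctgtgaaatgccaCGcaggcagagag
Galnt10: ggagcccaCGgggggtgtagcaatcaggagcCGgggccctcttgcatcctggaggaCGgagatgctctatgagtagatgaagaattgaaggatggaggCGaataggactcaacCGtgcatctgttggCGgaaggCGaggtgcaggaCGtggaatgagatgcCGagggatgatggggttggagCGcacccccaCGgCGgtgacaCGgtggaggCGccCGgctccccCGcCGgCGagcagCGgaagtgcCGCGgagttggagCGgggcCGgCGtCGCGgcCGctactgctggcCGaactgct
The Galnt5 window has 5 CpG dinucleotides and 54.3% G and C, and the Galnt10 window has 28 and 66.0%. Over the 32851 RefSeq promoters of this length the medians were 7 CpG dinucleotides and 52.7%, so Galnt10 lies above both and Galnt5 near both. Motif letters were searched on both strands. The TCF/LEF core, for the factors that WNT signals act through, was taken as CTTTGA and is in 16% of all promoters. The SOX cores were taken as ACAATG, found in 12.6% of all promoters, and as ACAAAG, found in 18.7%. For the steroidogenic factor NR5A1 the letters were CAAGGTCA, which 1.6% of all promoters hold. The motif of the GATA factors was taken as AGATAA, which stands in 11.2%. None of these 5 was in either window. The E-box, CANNTG, which 72.3% of all promoters hold, was found 3 times in Galnt5 and 1 time in Galnt10. A match of letters is a description of the window and not a binding site.

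Galnt5, a transferase known for restricted tissue expression, was read by 1 probe set. In KO testis E14.5 its intensity was 5.73 and 10.9, against 49.0 and 52.8 in WT testis E14.5. In KO ovary E14.5 it was 7.65 and 7.14, against 10.1 and 12.8 in WT ovary E14.5. At E12.5 it was 5.77 and 6.32 in KO testis, against 5.53 and 5.04 in WT testis. It was 5.93 and 5.70 in KO ovary E12.5, against 5.28 and 5.96 in WT ovary E12.5. The WT testis E14.5 arrays thus stand above the other 14, which lie between 5.04 and 12.8, and all 8 arrays of E12.5 lie between 5.04 and 6.32.

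**Figure D1:**
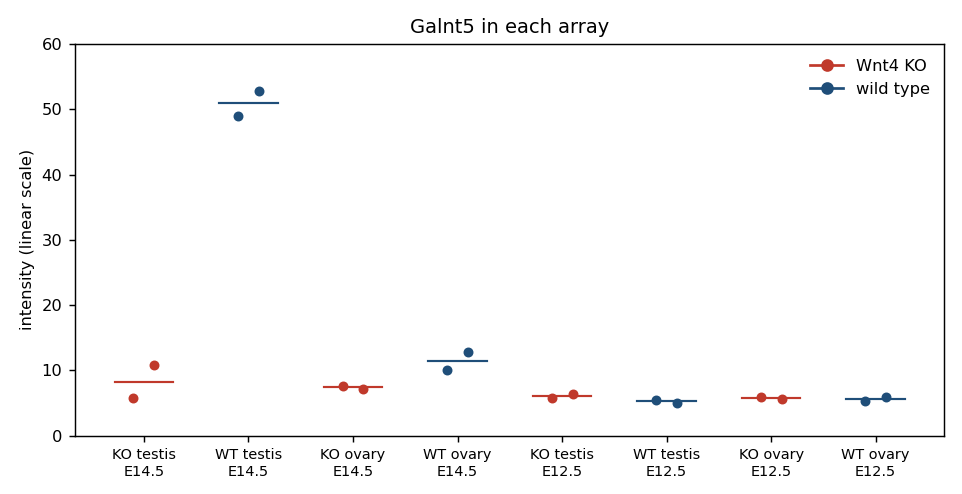
Galnt5 intensity on a linear scale (vertical axis) in each of the 16 arrays, by group (horizontal axis). Points are arrays, short lines are group means of 2 arrays, red is Wnt4 KO and blue is wild type. The WT testis E14.5 arrays read 49.0 and 52.8, and the other arrays lie between 5.04 and 12.8.

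Group means of Galnt5 were 8.30 ± 3.63 in KO testis E14.5 and 50.9 ± 2.69 in WT testis E14.5 (SD, n = 2 each), so the WT mean was 6.14 times the KO mean. On the scale of log2(intensity + 4), where 4 dampens noise at low intensity and shrinks the change of dim genes, the difference was -2.19. It was -2.45 without the 3 arrays rich in RNA of the other sex, and -1.47 with 16 in place of 4. These values chose Galnt5, so they are given without a test. In that comparison limma called 1 of the 12336 genes (0.00811%) at an adjusted p below 0.05. The arrays of that comparison chose Galnt5, so no test result of a member is read from it. The share is for the same reason no background for Galnt5. The groups did not overlap for 25.6% of the 12336 genes, from which nothing is read about Galnt5. KO testis replicate 1, the array that served as the baseline for RNA of the other sex, read 5.73 for Galnt5. Replicate 2, with 16.4%, read 10.9. In WT testis E14.5 the arrays with 0.0177% and 22.7% of such RNA read 49.0 and 52.8. In bulk tissue, fewer cells of a type and less RNA per cell cannot be told apart.

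Marker lists of other cell types were set beside this difference. Of 12 lists, 3 had summed intensities that did not overlap between KO and WT testis E14.5, all lower in KO. Of all 12336 single genes 25.6% did not overlap there, 1984 higher and 1176 lower in KO, so the count of lists is a description. The pre-granulosa list (10 of 10 markers measured, Wnt4 among them) summed to 599 to 1079 in KO, against 1167 to 1246 in WT. The macrophage list (7 of 7) summed to 773 to 999.5 in KO, against 1107 to 1175 in WT. The list of chromaffin cells and neurons (5 of 6) summed to 69.2 to 71.4 in KO, against 76.0 to 92.8 in WT. The other 9 lists overlapped: the Sertoli list (9 of 10) summed to 6836 to 8039 in KO, against 6403 to 7756 in WT, and the fetal Leydig list (5 of 7) to 12150 to 16410 in KO, against 9615 to 12310 in WT. The part of these cell types in the Galnt5 difference was not tested.

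Galnt5 could be tested in the arrays that did not choose it. It passed no test there with limma, a linear model with moderated variances fitted to all 16 arrays, with p adjusted by Benjamini-Hochberg over all 12336 genes. In KO ovary E14.5 its mean was 7.396 ± 0.365, against 11.4 ± 1.896 in WT ovary E14.5 (SD, n = 2 each). The log2 difference was -0.43, with a 95% interval of -0.83 to -0.04 before adjustment, and limma gave an adjusted p of 0.746. Without the WT ovary array that held 19.9% RNA of the other sex the difference was -0.31. In WT ovary Galnt5 averaged 11.4 ± 1.896 at E14.5 and 5.62 ± 0.484 at E12.5, a log2 difference of 0.68 (SE 0.18, limma adjusted p = 0.0553). That adjusted p was 0.0458 with 1 added to the intensity in place of 4, and 0.0486 with no filter on low values. In KO ovary the difference between E14.5 and E12.5 was 0.21 (limma adjusted p = 0.439). The KO against WT differences at E12.5 were 0.11 in testis and 0.03 in ovary, with limma adjusted p of 0.848 and 0.979.

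The 5 genes whose group means ran most like those of Galnt5, by Pearson correlation over 8 group means on the log2 scale, were Dlx5 (0.990), Dgkh (0.951), Washc4 (0.926), Yod1 (0.924) and Sp7 (0.919). Dlx5 and Sp7 encode transcription factors known from bone, and Dgkh a diacylglycerol kinase. Dlx5 averaged 6.58 in KO testis E14.5 and 13.0 in WT testis E14.5, and lay between 5.28 and 7.95 in the other groups. Dgkh averaged 36.4 in KO testis E14.5 and 53.2 in WT testis E14.5, and lay between 26.2 and 36.2 in the other groups. These likenesses rest mainly on 1 group of 2 arrays and on dim probe sets for Dlx5 and Sp7, and the same arrays chose Galnt5. For Yod1 those arrays read 131.6 and 290.9, so its high mean there rests on 1 array. Washc4 read 301 and 350 in them, below the 371 of WT ovary E14.5 replicate 1.

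Of the 10 genes, 8 had a probe set that exceeded the median of its array in 2 or more arrays and entered the fit: Galnt1, Galnt2, Galnt3, Galnt4, Galnt5, Galnt7, Galnt10 and Galnt12. Galnt5 passed in 5 arrays, and the other 7 genes in all 16. Galnt6, a close relative of Galnt3, was read by 3 probe sets between 2.35 and 6.16, and Galnt14, of the Galnt2 branch, by 1 probe set between 3.78 and 6.52, never above the median of an array. Of the 23 probe sets 15 passed. The probe set of highest mean stands for each gene below, and levels are compared only within a probe set.

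Among the transferases that start chains on bare protein, Galnt1 and Galnt2 are the widely expressed ones. Galnt1 had intensities of 514.6 to 1001 over the 16 arrays, with its lowest mean in WT testis E12.5 (548 ± 47.2) and its highest in KO ovary E12.5 (892 ± 155). Galnt2 lay between 514.9 and 981, lowest in WT testis E12.5 (616 ± 6.78) and highest in KO ovary E12.5 (886 ± 130). Galnt3, which glycosylates the phosphate hormone FGF23, lay between 20.1 and 36.5, and Galnt12, known from human colon, between 23.4 and 59.5. Galnt7 and Galnt10, which prefer partly glycosylated peptides, lay between 417 and 754 and between 28.9 and 93.2. Galnt4, which also acts on glycosylated peptides, lay between 212 and 456. With the 8 groups of each gene ordered by mean, 8 of the 56 pairs of neighbouring groups (14.3%) did not overlap, against 17.9% of such pairs over all genes tested. That count includes pairs of Galnt5 with the testis E14.5 arrays that chose it, so it is a description. Galnt5 in WT testis E14.5 lay above all other arrays of its probe set, with its lowest value at 49.0 and the next array at 12.8, which is likewise a description. Galnt1 in WT testis E12.5 read 581 and 514.6, below all other arrays, which began at 638. Its second probe set read 518 and 517 there, inside the range of the others.

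**Figure D2:**
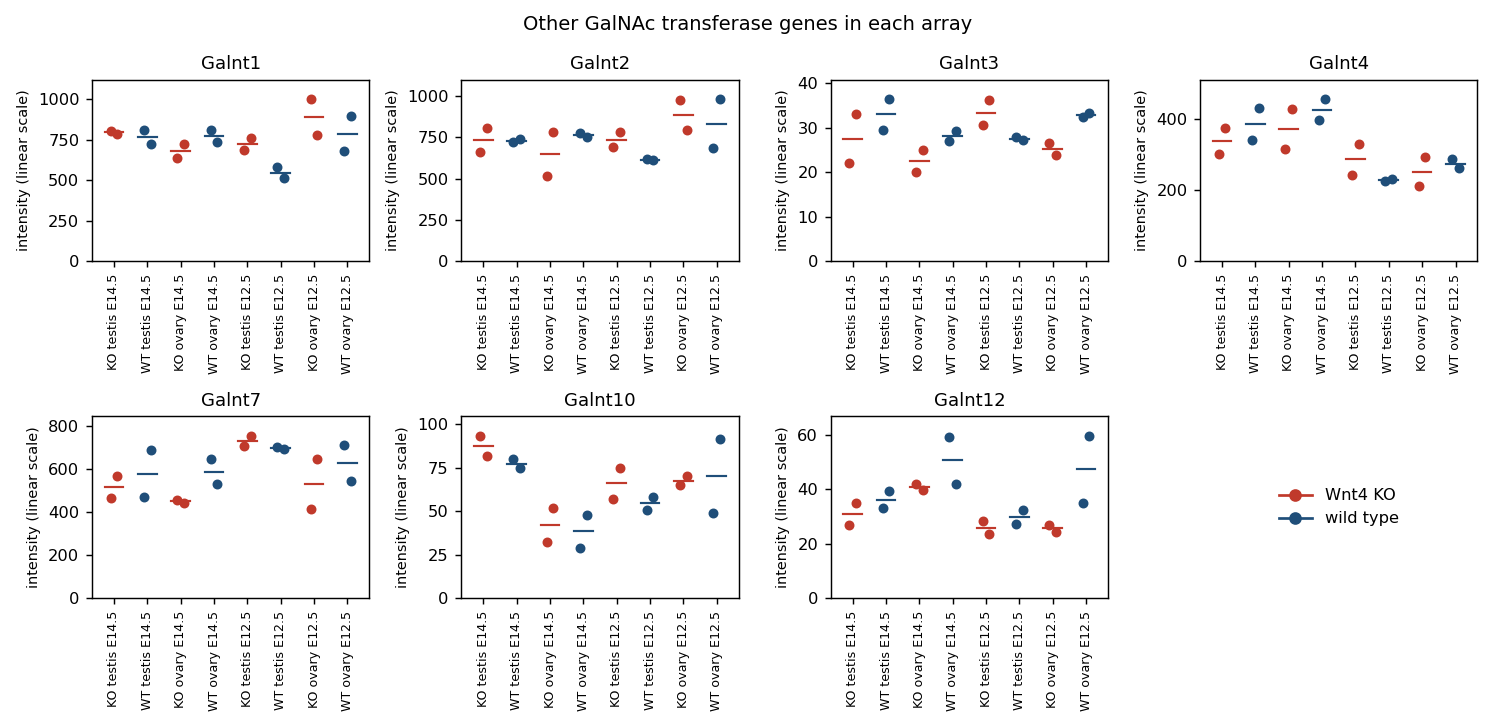
Intensity on a linear scale from 0 (vertical axes) of the representing probe set of Galnt1, Galnt2, Galnt3, Galnt4, Galnt7, Galnt10 and Galnt12 in each array, by group (horizontal axes). Points are arrays, short lines group means of 2 arrays, red Wnt4 KO and blue wild type. Galnt10 lies between 74.6 and 93.2 in E14.5 testis and between 28.9 and 52.0 in E14.5 ovary.

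Between KO and WT, no GalNAc transferase passed the test in the 3 comparisons open to one. In KO against WT testis E12.5 limma called 0 of 8 (1 at an unadjusted p below 0.05), against 0.0243% of all genes. In KO against WT ovary E12.5 it called 0 of 8 (1 unadjusted), against 0.276% of all genes, and in KO against WT ovary E14.5 0 of 8 (1 unadjusted), against 0.543%. These shares, here and below, count adjusted calls. An unadjusted p below 0.05 was reached by 1363 of the 12336 genes in testis E12.5, 985 in ovary E12.5 and 706 in ovary E14.5. In testis E14.5 the 7 members other than Galnt5 had log2 differences of -0.24 to 0.17, given as a description. There 1 of the 7 did not overlap between the groups, beside 25.6% of all genes: Galnt10, with 93.2 and 81.5 in KO and 80.1 and 74.6 in WT.

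With all arrays, the largest tested genotype difference of the 8 genes was that of Galnt12 in ovary E12.5. It read 26.7 and 24.4 in KO ovary E12.5, against 35.0 and 59.5 in WT ovary E12.5, a log2 difference of -0.75 (SE 0.27, limma adjusted p = 0.442). The highest of these 4 arrays, 59.5, is WT replicate 2, with a 3'/5' ratio of 1.76, and the difference was -0.40 without it and -1.10 without WT replicate 1. Galnt1 read 691 and 759.9 in KO testis E12.5, against 581 and 514.6 in WT testis E12.5, a log2 difference of 0.40 (SE 0.18, limma adjusted p = 0.437). Its second probe set read 301 and 538 in KO testis E12.5, against 518 and 517 in WT testis E12.5, so the array with a 3'/5' ratio of 1.76 was low in the second and not in the first. The arrays of KO and WT testis E12.5 did not overlap for 6 of the 8 genes, all higher in KO. Beside that, 57.1% of all 12336 genes did not overlap, 5054 higher and 1996 lower in KO. The WT arrays of this comparison are the pair that lay close to each other. The median log2 difference of the 8 was 0.24 against 0.10 over all genes. Averaged over the 3 tested comparisons, limma again called 0 of 8 (1 at an unadjusted p below 0.05), against 1.6% of all genes (1349 of 12336 unadjusted). In that average Galnt12 had a log2 difference of -0.40 with a 95% interval of -0.73 to -0.06 before adjustment (limma adjusted p = 0.338). Intervals of the other 7 genes held 0, with bounds from -0.49 to 0.54.

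**Figure D3:**
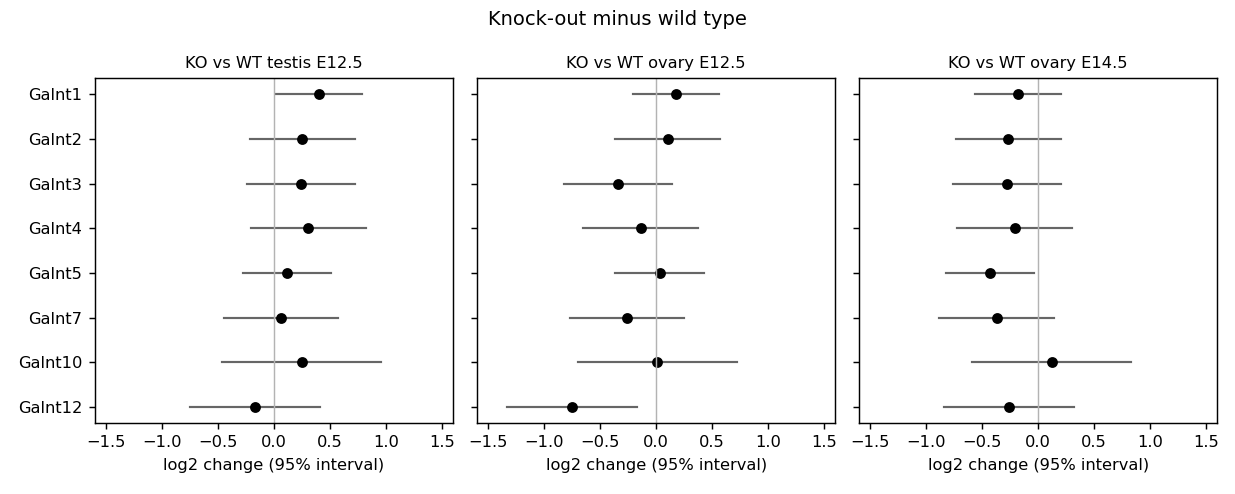
Log2 difference, KO minus WT (horizontal axes), of the 8 genes (vertical axis) in testis E12.5, ovary E12.5 and ovary E14.5. Points are limma estimates and lines are 95% intervals before adjustment over genes. The intervals of Galnt12 in ovary E12.5, Galnt1 in testis E12.5 and Galnt5 in ovary E14.5 leave out 0, and no adjusted p was below 0.05.

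A test of whether the genotype difference depended on sex at E12.5 called 0 of 8 (0 at an unadjusted p below 0.05), against 0.0973% of all genes. The same for stage in the ovary called 0 of 8 (0 unadjusted), against 0% of all genes. Of the 12336 genes, 745 for sex and 555 for stage had an unadjusted p below 0.05.

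Galnt4 was higher at E14.5 than at E12.5. At E14.5 it read 303 and 374 in KO testis, 341 and 430.3 in WT testis, 315 and 427 in KO ovary, and 396 and 456 in WT ovary. At E12.5 it read 244 and 329.7 in KO testis, 226 and 231 in WT testis, 212 and 293 in KO ovary, and 287 and 262 in WT ovary. The highest E12.5 array, 329.7 in KO testis, lies above 2 of the 8 arrays of E14.5, and the stages overlap within KO testis but not within WT testis, KO ovary or WT ovary. Averaged over sexes and genotypes, a comparison added after values were seen, the log2 difference was 0.54 (SE 0.12, limma adjusted p = 0.00514), with a 95% interval of 0.28 to 0.79. Limma called 1 of 7 genes there, Galnt5 left out, against 26.5% of all genes.

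In the single groups the Galnt4 difference between the stages was 0.24 in KO testis, 0.74 in WT testis, 0.55 in KO ovary and 0.62 in WT ovary. None passed the test, with limma adjusted p of 0.693, 0.0656, 0.130 and 0.180. Limma called 0 of 7 genes in KO testis (0 at an unadjusted p below 0.05), against 3.89% of all genes, and 0 of 7 in WT testis (2 unadjusted), against 10.5%. It called 0 of 8 in KO ovary (3 unadjusted), against 13.7%, and 0 of 8 in WT ovary (3 unadjusted), against 4.32%. Of the 12336 genes, 2006 in KO testis, 3266 in WT testis, 3987 in KO ovary and 2266 in WT ovary had an unadjusted p below 0.05. With the replicate number as a block the WT testis difference had an adjusted p of 0.0344. Without the 3 arrays of E14.5 rich in RNA of the other sex, the average was 0.43.

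A second Galnt4 probe set had 16.8 to 36.5 in 8 arrays of E14.5, against 7.0 to 17.1 at E12.5. Fitted over all probe sets, its averaged log2 difference was 0.83 (SE 0.20, limma adjusted p = 0.012). Its 3 lowest values, 7.0 to 8.35, are those of the 3 arrays of E12.5 with a high 3'/5' ratio, and without them the difference was 0.58. Without the same arrays the brightest Galnt4 probe set had a difference of 0.41. The third stayed between 3.91 and 5.45 and did not pass the filter. Galnt4 overlaps Poc1b, a gene for a centriole protein, in RefSeq. Poc1b read 98.2 to 153 at E14.5, against 103 to 244 at E12.5. Cell markers also moved between the stages. The erythroid list (5 of 6 markers measured) summed to 13190 to 23880 at E14.5, against 34280 to 42500 at E12.5. The meiosis list (7 of 7) summed to 523 to 7898 at E14.5, against 97.1 to 267.7 at E12.5. For the interstitium list (5 of 6) the sums were 13930 to 16730 at E14.5, against 8939 to 12980 at E12.5. The other lists overlapped between the stages, among them the germ cell list (6 of 6), with 4003 to 10470 at E14.5, against 1616 to 4375 at E12.5. The part of these cell types in the Galnt4 difference was not tested.

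Galnt10 was higher in testis than in ovary at E14.5. It read 93.2 and 81.5 in KO testis E14.5, against 32.0 and 52.0 in KO ovary E14.5. In WT testis E14.5 it read 80.1 and 74.6, against 28.9 and 47.9 in WT ovary E14.5. The 4 testis arrays therefore all lie above the 4 ovary arrays. At E12.5 it read 57.2 and 74.9 in KO testis and 50.9 and 58.4 in WT testis, against 64.8 and 70.2 in KO ovary and 48.8 and 91.2 in WT ovary, and testis and ovary overlap.

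Averaged over both genotypes, a comparison also added after values were seen, the Galnt10 log2 difference of testis and ovary at E14.5 was 1.00 (SE 0.23, limma adjusted p = 0.0122), with a 95% interval of 0.50 to 1.501. Limma called 1 of 7 genes in that average, against 12.9% of all genes. The differences were 1.02 in KO and 0.98 in WT, with limma adjusted p of 0.104 and 0.137. Limma called 0 of 7 genes between KO testis and KO ovary E14.5 (1 at an unadjusted p below 0.05), against 5.3% of all genes. Between WT testis and WT ovary E14.5 it called 0 of 7 (1 unadjusted), against 3.83%. An unadjusted p below 0.05 was reached by 2135 of the 12336 genes in KO and 1956 in WT. The averaged call was lost when replicate 1 of KO ovary (0.84, adjusted p = 0.0619) or replicate 1 of WT ovary (0.83, adjusted p = 0.0642) of E14.5 was left out. Without the 3 E14.5 arrays rich in RNA of the other sex the difference was 1.23.

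**Figure D4:**
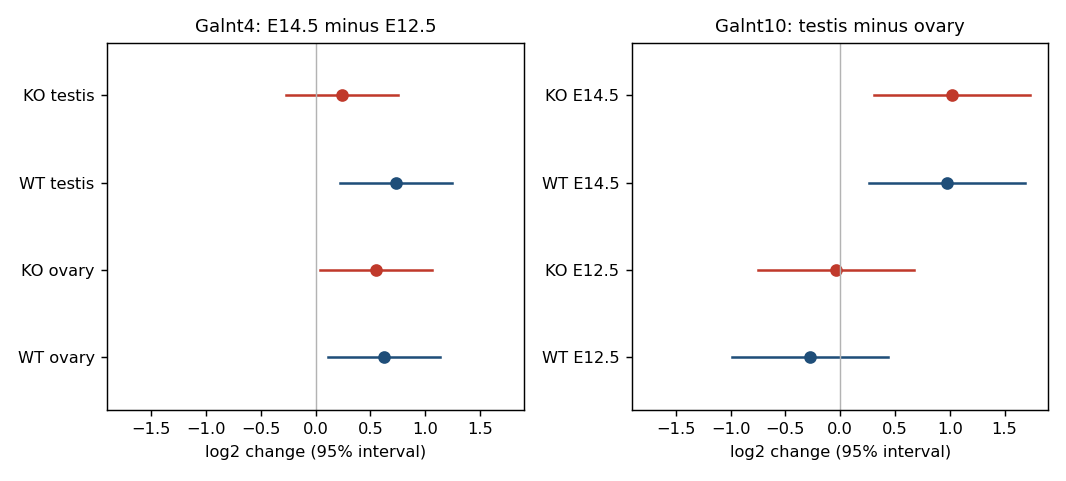
Left, log2 difference of Galnt4 between E14.5 and E12.5 in each sex and genotype. Right, log2 difference of Galnt10 between testis and ovary in each genotype and stage. Points are limma estimates, lines 95% intervals before adjustment, red KO and blue WT. Galnt10 differences are 1.02 and 0.98 at E14.5 in KO and WT, and -0.04 and -0.28 at E12.5.

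At E12.5 the averaged Galnt10 difference of testis and ovary was -0.16 (limma adjusted p = 0.674). Limma called 0 of 8 genes in that average (2 at an unadjusted p below 0.05), against 5.54% of all genes. It called 0 of 8 in KO (0 unadjusted), against 1.07%, and 0 of 8 in WT (1 unadjusted), against 0.608%. Of the 12336 genes, 3697 in the average, 2358 in KO and 2055 in WT had an unadjusted p below 0.05. The sex difference of Galnt10 at E14.5 exceeded that at E12.5 by 1.16 on the log2 scale (SE 0.33, limma adjusted p = 0.0432), the 1 call among 7 genes against 10.2% of all genes. That call was past the threshold in 11 of the 27 settings computed.

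A second Galnt10 probe set read 18.6 to 29.8 in E14.5 testis, against 11.7 to 21.2 in E14.5 ovary. Its averaged log2 difference was 0.47 (limma adjusted p = 0.253 over all probe sets), the same direction without a call, and the third probe set never passed the filter. Testis cell markers were far apart in the same arrays. The Sertoli list (9 of 10 markers measured) summed to 6403 to 8039 in E14.5 testis, against 316 to 2587 in E14.5 ovary. At E12.5, where Galnt10 overlapped, it summed to 5137 to 6165 in testis, against 388 to 1445 in ovary. The fetal Leydig list (5 of 7) summed to 9615 to 16410 in E14.5 testis, against 1173 to 4626 in E14.5 ovary, and to 1450 to 2666 in E12.5 testis, against 1091 to 2973 in E12.5 ovary. Other lists also overlapped between the sexes at E12.5 and not at E14.5. The meiosis list (7 of 7) summed to 523 to 2050 in E14.5 testis, against 3670 to 7898 in E14.5 ovary. The surface epithelium list (4 of 5) summed to 1701 to 2180 in E14.5 testis, against 2622 to 3083 in E14.5 ovary. The part of all these cells in the Galnt10 difference was not tested.

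Probe sets of a gene did not always move together. In 4 of the 15 probe sets the 3 lowest of all 16 values were those of the 3 arrays with a 3'/5' ratio above 1.5, beside 5.52% of the 25620 probe sets tested. The second Galnt1 probe set read 271.9 to 383 in those arrays, against 461 to 679 in the other 13. The dimmest Galnt7 probe set read 10.7 to 20.8, against 32.7 to 102.6. The others were the second Galnt4 probe set, with 7.0 to 8.35 against 11.2 to 36.5, and the dimmest Galnt2 probe set, with 17.1 to 68.5 against 68.6 to 157. The brightest probe sets of Galnt1 and Galnt2 did not have this pattern, with 691 to 1001 against 514.6 to 813 for Galnt1. The probe sets also disagreed between the stages: the brightest Galnt7 probe set had an averaged log2 difference of -0.28 (limma adjusted p = 0.104), and the dimmest had 0.85 (limma adjusted p = 0.103 over all probe sets). For Galnt1 the brightest gave 0.06 and the second 0.49, of which the second passed the threshold (limma adjusted p = 0.0434 over all probe sets). Without the 3 arrays of high ratio some groups hold a single array, so for genes and probe sets only effect sizes of that fit are given. There the second Galnt1 probe set gave 0.20, the dimmest Galnt7 probe set 0.21 and the brightest Galnt7 probe set -0.41, a larger fall than with all arrays.

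**Figure D5:**
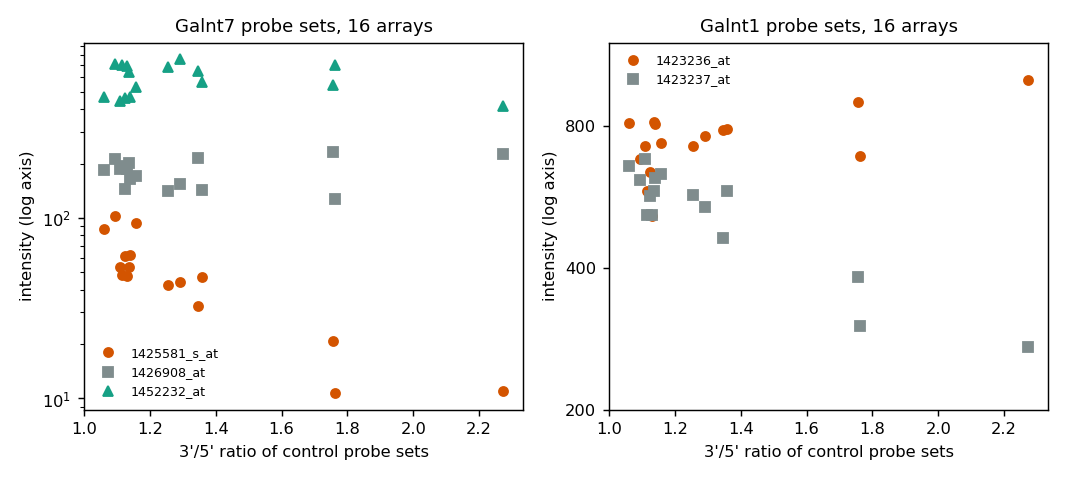
Intensity (vertical axes, log scale) of the probe sets of Galnt7 (left) and Galnt1 (right) against the 3'/5' control ratio (horizontal axes). Each point is 1 of the 16 arrays and each colour a probe set, named by its array identifier. In the 3 arrays with ratios of 1.76 to 2.27, the second Galnt1 probe set (grey squares, right) lies between 271.9 and 383, against 461 to 679 in the other 13 arrays.

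Other members of the family and of the pathway were read from lists of genes. Of 9 further family genes 8 had a probe set, and 3 passed the filter: Galnt11, Galnt16 and Galnt18. In KO against WT, limma called 0 of 3 in testis E12.5 (1 at an unadjusted p below 0.05), 0 of 3 in ovary E12.5 (0 unadjusted) and 0 of 3 in ovary E14.5 (0 unadjusted). Over all 12336 genes the unadjusted counts were 1363, 985 and 706, in the same order. Galnt16, a relative of Galnt2, read 15.9 to 26.3 at E14.5, against 7.74 to 15.8 at E12.5, and the stages did not overlap. Averaged over sexes and genotypes its log2 difference was 0.72 (SE 0.13, limma adjusted p = 0.00147), the 1 call of 3 beside 26.5% of all genes.

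Enzymes that extend and cap the chain, those that supply UDP-GalNAc, and mucin-like proteins had 10 tested genes in each list. In the 3 tested comparisons of KO with WT, limma called 0 of 10 in each list. At an unadjusted p below 0.05 there were 0 extending enzymes in each comparison, 2 supply genes in testis E12.5, and 1 mucin-like protein in testis E12.5 and in ovary E14.5. That level was reached by 1363 of all 12336 genes in testis E12.5, 985 in ovary E12.5 and 706 in ovary E14.5. Between stages, averaged, 3 of 10 extending and capping enzymes were called, beside 26.5% of all genes. Gcnt1, which makes the branched core structure, fell by 0.60 on the log2 scale at E14.5 (limma adjusted p = 0.00738) and read 8.83 to 25.1, against 24.6 to 34.8 at E12.5. St6galnac2, a sialyltransferase, fell by 0.25 (adjusted p = 0.0394), and C1galt1c1, the chaperone Cosmc of the core enzyme, rose by 0.29 (adjusted p = 0.0357). Supply genes had 3 of 10 called, all higher at E14.5: Uap1 by 0.47 (adjusted p = 0.0233), Gfpt1 by 0.20 (0.0468) and Uap1l1 by 0.25 (0.0475). Uap1 had its 2 lowest values, 194.5 and 225.6, in the ovary E12.5 arrays with 3'/5' ratios of 2.27 and 1.76. Without the 3 arrays of high ratio Gcnt1 gave -0.63, Uap1 0.29, St6galnac2 -0.17, C1galt1c1 0.19, Gfpt1 0.17 and Uap1l1 0.25. Without the 3 E14.5 arrays rich in RNA of the other sex they gave -0.72, 0.50, -0.23, 0.32, 0.18 and 0.21, in the same order. Of the mucin-like proteins 0 of 10 were called between the stages (2 unadjusted, beside 4837 of all 12336 genes unadjusted). Within single groups, Uap1 read 475 ± 12.2 in KO ovary E14.5 and 251 ± 79.9 in KO ovary E12.5 (SD, n = 2 each), a log2 difference of 0.95 (limma adjusted p = 0.0386). The podocalyxin-like Podxl2 read 91.5 ± 26.8 in KO ovary E14.5 and 208 ± 30.04 in KO ovary E12.5, a log2 difference of -1.17 (limma adjusted p = 0.0301). Gfpt1, the first enzyme of the hexosamine pathway, read 1251 ± 82.3 in WT testis E14.5 and 864 ± 26.1 in WT testis E12.5, a log2 difference of 0.53 (limma adjusted p = 0.0293). Without the 3 arrays of high ratio the Uap1 difference was 0.62 and that of Podxl2 -1.03. The 3 E14.5 arrays rich in RNA of the other sex are not KO ovary arrays. Without them the Uap1 and Podxl2 differences therefore stayed at 0.95 and -1.17, and that of Gfpt1 in WT testis was 0.46.

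Among the mucin-like proteins, Podxl was lower in testis than in ovary at both stages and in both genotypes. Podxl, the podocalyxin of cell surfaces, read 1073 ± 13.3 in KO testis E14.5 and 2134 ± 21.2 in KO ovary E14.5 (SD, n = 2 each), a log2 difference of -0.99 (limma adjusted p = 0.0058). In WT it read 1341 ± 108 in testis E14.5 and 2807 ± 195 in ovary E14.5, a log2 difference of -1.06 (limma adjusted p = 0.00601). At E12.5 the differences were -0.88 in KO and -1.43 in WT, with limma adjusted p of 0.0386 and 0.00241. Without the 3 arrays of high ratio the E12.5 difference in KO was -0.71. Without the 3 E14.5 arrays rich in RNA of the other sex the E14.5 differences were -1.001 in KO and -0.91 in WT. Both fits leave single arrays in some groups, so no p-value is given for them. Averaged over genotypes, 2 of 10 mucin-like proteins were called at E14.5, beside 12.9% of all genes, Podxl and the endothelial endomucin gene Emcn (-0.56, limma adjusted p = 0.0462), both lower in testis. At E12.5 4 of 10 were called, beside 5.54% of all genes, all lower in testis: Podxl (-1.15), Podxl2 (-1.21), Parm1 (-0.97) and Muc16 (-0.81). Supply genes had 3 of 10 called at E12.5, with Gnpnat1 higher in testis (1.74) and Gfpt2 (-0.79) and Uap1l1 (-0.49) lower. Of the extending and capping enzymes 0 of 10 were called between the sexes at E14.5 (2 unadjusted) and at E12.5 (1 unadjusted), and of the supply genes 0 of 10 at E14.5 (1 unadjusted). Over all 12336 genes the unadjusted counts were 3309 at E14.5 and 3697 at E12.5. The 2 ovary E12.5 arrays with 3'/5' ratios of 2.27 and 1.76 held the 2 lowest values of Gnpnat1 (84.3 and 119) and the 2 highest of Gfpt2 (49.7 and 34.7). They also held the highest E12.5 values of Muc16 (47.4 and 34.1). Without the 3 arrays of high ratio, the E12.5 differences were -0.90 for Podxl, 0.60 for Gnpnat1, -0.46 for Gfpt2 and -0.66 for Muc16. They were -0.92 for Podxl2, -0.77 for Parm1 and -0.41 for Uap1l1. Without the 3 E14.5 arrays rich in RNA of the other sex, the averaged E14.5 difference was -0.96 for Podxl and -0.35 for Emcn. The E12.5 differences were not refitted without the E12.5 arrays rich in such RNA.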

How the data were processed

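The authors deposited probe-set intensity values, linear in scale, for 45101 probe sets. The submitters' processing notes name MAS5 and give no version, scaling target or further step. Array means lay between 272.4 and 287.6, so the deposited scale was kept, and the number of arrays limits the precision.

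Values were turned into log2(intensity + 4). Control probe sets (64) were left out, and 25620 probe sets were kept that exceeded their array's median in 2 or more arrays. Names came from the platform annotation, updated through Entrez numbers (34754 probe sets), and 932 probe sets with several symbols and 9160 with none were not named. The probe set of highest mean stood for each of 12336 genes. Limma 3.58.1 (R 4.3.3), with an intensity trend, fitted 1 mean to each group over all 16 arrays. All p-values are two-sided and were adjusted over all genes by Benjamini-Hochberg, with a threshold of 0.05. They covered 18 contrasts, of which 5 averages or differences of averages were added after values had been seen. The members and lists were chosen with earlier results of these data known. Every listed gene is named, other genes only where they passed a test (at most 4 per list and comparison), were markers, or were among the 5 most like Galnt5. The contrasts share arrays. The log2 differences of replicate 1 and replicate 2 in a group were correlated, over genes, with those of the other group. These correlations ran from -0.66 to 0.582 over 12 comparisons, so numbers were not used as pairs. RNA of the other sex was estimated from Xist in testis arrays, and in ovary arrays from the Y-linked Eif2s3y, Kdm5d and Uty. For each transcript the lowest array of the same sex and stage was taken as the baseline. The code was tested on simulated data. Promoters were matched by symbol in RefSeq (6 of 10 members). Alternatives changed the pseudocount, filter, probe set summary, normalization, variance model and replicate block, averaged the WT testis E12.5 arrays, or left arrays out.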

Additional observations from a re-analysis of the deposited data

Results flagged for a closer look

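The difference between testis and ovary in Galnt10 was larger at E14.5 than at E12.5 by 1.157 on the log2 scale (SE 0.33, limma adjusted p = 0.0432), by a test of the difference itself that was added after values were seen. It was past the threshold in 11 of 27 settings, with values from 0.821 to 1.392 and adjusted p from 0.0097 to 0.183. Summed markers of fetal Leydig cells, of meiosis and of surface epithelium each overlapped between the sexes at E12.5 and not at E14.5. At E14.5 the Leydig sums were higher in testis, and the meiosis and surface epithelium sums were higher in ovary. The part of these cells in this result was not tested.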

How the results depend on the processing

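Of the 18 counts of members called, 15 were 0 as reported and so could only grow. The Galnt5 difference in testis E14.5, -2.19, was -1.469 with a pseudocount of 16, as a larger pseudocount shrinks dim genes, and lay between -2.496 and -1.885 when an array was left out. With a pseudocount of 1, 1 member was called between the stages in WT ovary (Galnt5). With no filter these counts were 2 in WT ovary (Galnt5, Galnt14), 1 in KO ovary (Galnt14), 2 in the stage average (Galnt4, Galnt14) and 0 for sex by stage. With the mean of a gene's probe sets they were 2 in the stage average (Galnt1, Galnt4) and 0 for sex by stage, and the Galnt7 stage average turned to 0.125 from -0.28 as its probe sets disagree. The replicate block gave 1 in WT testis between stages (Galnt4) and changed no other count of calls on the members. Averaging the WT testis E12.5 arrays gave 0 for sex by stage. Without the 3 E14.5 arrays rich in RNA of the other sex both the stage average and sex by stage were 0. Without the 3 E12.5 arrays of high 3'/5' ratio the stage average was 3 (Galnt4, Galnt7, Galnt12) and sex by stage 0. The causes of these moves were otherwise not tested. Leaving out each array in turn gave counts of 1 to 2 in the stage average, 0 to 2 for sex by stage and for the sex average at E12.5, 0 to 1 for the sex average at E14.5, for WT ovary between stages and for WT testis against ovary at E12.5, and 0 elsewhere. Correlations of replicate differences between groups were 0.582 in KO against WT testis E14.5 and 0.209 in KO testis against ovary E14.5. They were below -0.1 in 5 comparisons, where a crossed pairing also called 0 members.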
